A study of Homo sapiens with 6 samples.

Results

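Peaks of NME2 binding were examined around 4 genes long known as targets of NME2, namely MYC, PDGFA, VCL and TERT, in A549 cells, a line derived from a human lung adenocarcinoma. The genes were chosen by name, with earlier results of these data known. A peak was assigned to a gene where it overlapped the gene body in hg18, extended by 500 kb on each side. By this rule 8 of the 2541 peaks of the list before NME2 induction and 23 of the 11545 peaks of the list after induction belonged to the 4 genes. The study's text gives a smaller number of peaks for each condition than these lists hold, and the full lists were used here. For each condition the series holds 3 samples of chromatin immunoprecipitation with sequencing (ChIP-seq), 2 precipitated for NME2 and 1 with IgG. The cells before induction received no plasmid, per the labels and the study's methods, and their endogenous NME2 was precipitated with the antibody nm23-h2 L-16. The cells after induction had been transfected with a pcDNA3 plasmid for myc-tagged NME2 for 48 h and were precipitated with the antibody clone 9E10 against the tag. The IgG control is given in the labels as goat after induction and as mouse before induction. Clone 9E10 is a mouse antibody, so the labelled control after induction is of another species. The labels give no species for L-16, so a match of the control before induction cannot be taken from them. The study's methods describe the IgG as an isotypic control in both conditions, so the species in the labels may not be right. The part of the controls in the peak lists was not tested. Plasmid, antibody and control thus changed together between the conditions, and their effects cannot be told apart. Induced NME2 came from a transient plasmid in a line that also expresses its own NME2. Each condition is 1 list of positions, without scores, read numbers or replicate values. The read depth behind a peak is therefore unknown, no spread between replicates can be given, and all intervals cover counting error only.

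NME2, also called NM23-H2 or nucleoside diphosphate kinase B, balances nucleotide pools and is a suppressor of metastasis. It was also isolated as PuF, a factor that binds the guanine-rich nuclease-hypersensitive element just upstream of the MYC promoter, where the DNA can fold into a G-quadruplex. MYC encodes a transcription factor that drives growth and proliferation. PDGFA encodes the A chain of platelet-derived growth factor, VCL encodes vinculin, which ties focal adhesions to the actin cytoskeleton, and TERT encodes the catalytic subunit of telomerase. The tag recognized by clone 9E10 is itself a short stretch of the MYC protein. Whether the MYC protein of the cells was precipitated along with tagged NME2, and added to the list after induction, was not tested.

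Of the 4 genes, MYC alone had a peak within 1 kb of its transcription start site (TSS), and it had such peaks in both lists. Of positions placed every 10 kb over the genome, 0.171% were within 1 kb of a peak before and 0.808% after induction. VCL and TERT had a peak within 50 kb of the TSS after induction and none before. With MYC this makes 1 of 4 genes before and 3 of 4 after induction, where 7.26% and 30.4% of genome positions have a peak within 50 kb. PDGFA had no peak within 100 kb of its TSS in either list. At least 1 peak lay within 500 kb of the gene body for 3 of the 4 genes before induction, all but VCL, and for 4 of 4 genes after induction. Over the whole genome, 50.6% of 2983 windows of 1 Mb held a peak before induction and 93.0% held a peak after induction. A peak somewhere in the window is thus the usual state after induction. The gene body itself held 1 peak before induction, at MYC, and 1 after induction, at TERT.

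**Figure D1:**
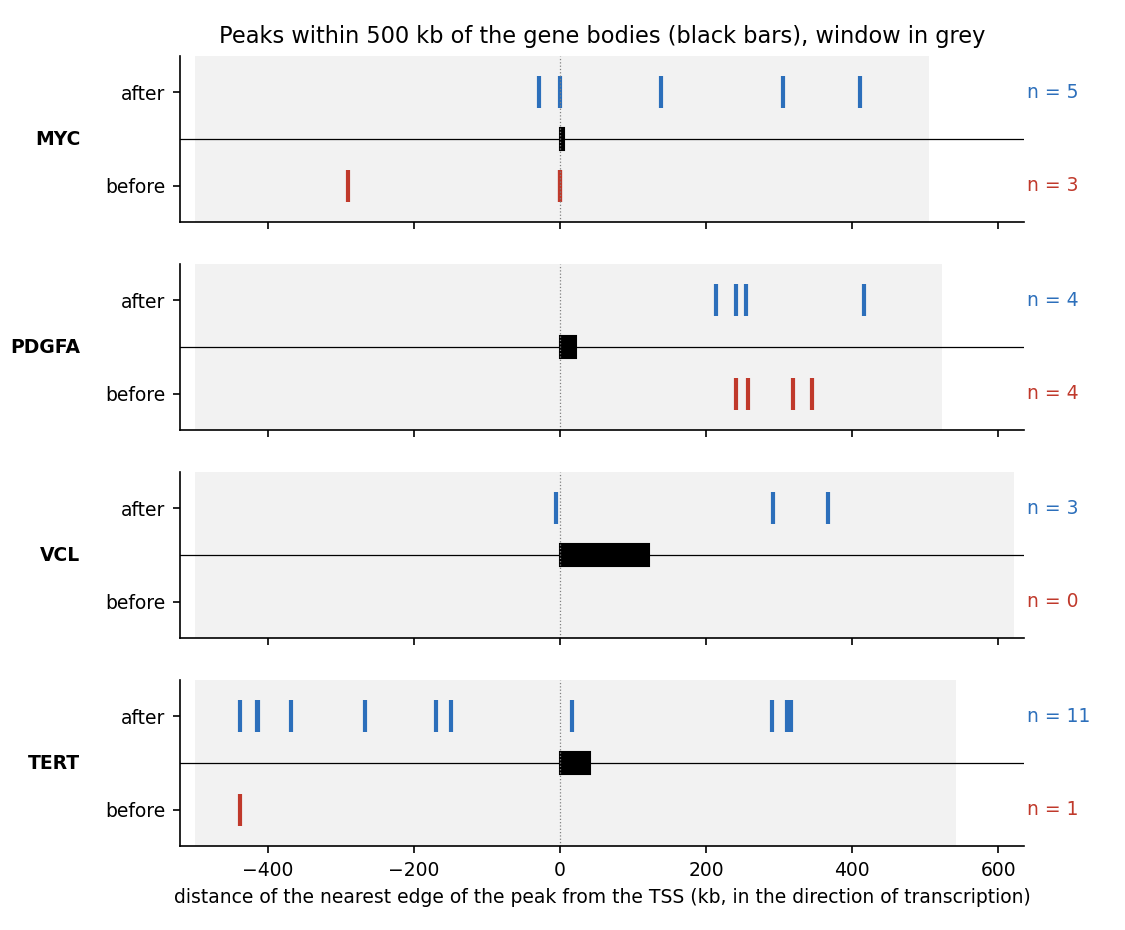
Positions of all peaks within 500 kb of the 4 gene bodies, as the distance in kb of the nearest edge of the peak from the TSS, counted in the direction of transcription. Each tick is 1 peak, with the list before induction in red and the list after induction in blue, and black bars are gene bodies. The 3 peaks before and 5 peaks after induction at MYC include those at the TSS, while all 8 peaks at PDGFA lie downstream of the gene.

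MYC (chromosome 8 of hg18, 128817498 to 128822853, plus strand) had 3 peaks before and 5 peaks after induction in its window. Before induction a peak of 28 bp lay upstream of the TSS, from 128817230 to 128817257, with its near edge 241 bp from the TSS. A second peak of 28 bp lay inside the gene body from 128817947 to 128817974, which is 449 bp downstream of the TSS. After induction there was a single peak at the promoter, of 114 bp, from 128817296 to 128817409, and its near edge was 89 bp upstream of the TSS. The peaks of the 2 lists within 1 kb of the TSS did not overlap. A gap of 38 bp separated the upstream peak before induction from the peak after induction, and the peak in the gene body was 537 bp away from it. Among all peaks before induction 21.1% overlapped a peak found after induction and a further 8.5% lay within 1000 bp of such a peak without touching it, and both MYC peaks within 1 kb of the TSS belong to the second class. In the gene body 1 peak was found before and 0 after induction, against 0.00456 and 0.0208 peaks for a stretch of 5.36 kb at the density of the chromosome. Which exon or intron holds the peak was not examined here.

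**Figure D2:**
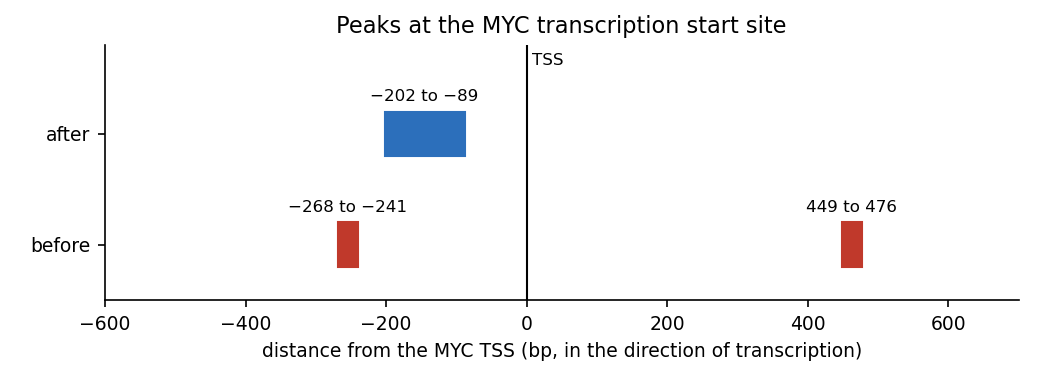
Peaks at the MYC TSS, drawn to scale as the distance in bp from the TSS in the direction of transcription, with the list before induction in red and the list after induction in blue. The peak after induction is 114 bp wide, ends 89 bp upstream of the TSS and lies between the 2 narrow peaks found before induction.

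The other peaks of the MYC window were remote. Before induction the third peak lay 290 kb upstream of the TSS. After induction 1 peak lay 28.3 kb upstream, and 3 peaks lay 139, 305 and 411 kb downstream. On that side the next protein-coding neighbour of MYC with a name in RefSeq is GSDMC, whose position in hg18 was not examined here. Non-coding genes were not considered, so whether these peaks lie in such a gene was not examined either. None of the 3 MYC peaks before induction exceeded 29 bp in width, as was the case for 49.2% of that list. When peaks of at most 29 bp were left out, MYC kept its promoter peak after induction, and the nearest remaining peak before induction lay 2315216 bp from the TSS. Both MYC peaks within 1 kb of the TSS before induction, the one upstream and the one in the gene body, were 28 bp wide.

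PDGFA (chromosome 7 of hg18, 503423 to 526007, minus strand) had 4 peaks in each list, none of them in the gene body or within 200 kb of the TSS. All 8 lay downstream of the gene, towards the start of the chromosome, and the side upstream of the TSS was empty up to 1.1 Mb before and 0.685 Mb after induction. The nearest peak before induction was 241.4 kb from the TSS (284586 to 284652, 67 bp wide) and the nearest after induction was 214 kb away (311628 to 311655, 28 bp wide). The second nearest peak after induction, from 284545 to 284756 with a width of 212 bp, covered the nearest peak before induction completely. It was the only pair of peaks of the 2 lists that overlapped in any of the 4 windows. The other peaks before induction lay 257, 319 and 345 kb from the TSS, and the other peaks after induction 255 and 417 kb. In RefSeq the named protein-coding genes next to PDGFA on this side are FOXL3 and FAM20C.

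No peak of either list lay in the 300 bp around the TSS of PDGFA, VCL or TERT, from 250 bp before to 50 bp after it, whereas the same stretch of MYC held 1 peak in each list. Over the genome 0.0321% of such stretches, taken every 10 kb, held a peak before and 0.166% after induction, so an empty stretch is the usual state and says nothing particular of these 3 genes. The promoters of PDGFA and VCL are shown because NME2 is known for binding guanine-rich promoter DNA, of which both genes have a run close to the TSS. They are 250 bases before the start site from RefSeq (GRCh38.p14), 5′ to 3′ on the strand of the gene, and capitals mark every match of GGGAGGG or of GGGTGGG or of GGGCGGG on either strand. For PDGFA, with 4 start sites in the table, the start was taken that gives the gene the length closest to its hg18 body (22589 against 22585 bp). The only start of VCL in the table gives a gene longer than its hg18 body (123248 against 122043 bp), so the VCL stretch shown may not lie at the hg18 TSS. The sequences lie at chr7:519847-520096 (minus strand) and chr10:73997866-73998115 (plus strand).
PDGFA: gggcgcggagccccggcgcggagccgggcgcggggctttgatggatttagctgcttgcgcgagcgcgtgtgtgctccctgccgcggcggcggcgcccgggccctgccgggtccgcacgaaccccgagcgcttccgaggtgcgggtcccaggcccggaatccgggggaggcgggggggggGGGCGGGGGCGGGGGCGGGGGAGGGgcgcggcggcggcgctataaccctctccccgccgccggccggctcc
VCL: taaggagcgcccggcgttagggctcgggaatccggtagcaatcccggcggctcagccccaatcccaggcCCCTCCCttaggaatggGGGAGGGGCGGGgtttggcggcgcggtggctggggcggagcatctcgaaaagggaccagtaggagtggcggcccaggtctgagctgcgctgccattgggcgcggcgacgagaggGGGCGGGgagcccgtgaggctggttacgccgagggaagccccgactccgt

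In PDGFA 4 overlapping matches, 3 of GGGCGGG and 1 of GGGAGGG, merge into 1 run of 25 bases from position -71 to -47, counted backwards from the start. The guanine-rich stretch at this place is known as the nuclease-hypersensitive element of the PDGFA promoter. VCL had 4 matches, 2 of GGGAGGG and 2 of GGGCGGG, and the longest run covered 12 bases from -164 to -153. The TERT promoter, searched over the same 250 bases, also had 4 matches, all on the strand opposite to the gene. Such matches are common: among 35116 promoter windows of the same length 24.7% held GGGAGGG, 18.2% held GGGTGGG, 31.5% held GGGCGGG and 50.8% held at least 1 of them. The table had entries for 3 of the 4 genes. A match of letters describes the sequence and is not a site of binding. The peaks are in hg18 and these promoters in GRCh38, so their coordinates cannot be set against each other.

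VCL (chromosome 10 of hg18, 75427878 to 75549920, plus strand) had 0 peaks before induction, a count that allows up to 3, and 3 peaks after induction. The nearest peak before induction lay 1.74 Mb downstream of the TSS, from 77166747 to 77166775, and on the upstream side the nearest was 5.79 Mb away. After induction a peak of 93 bp lay 5.93 kb upstream of the TSS, from 75421859 to 75421951. The other peaks after induction were 292 and 366 kb downstream of the TSS, beyond the end of the gene body of 122 kb, and were 200 and 218 bp wide. None of the 3 peaks was narrow, and no peak fell into the gene body, where 0.158 peaks before and 0.538 after induction correspond to the density of the chromosome. Of the named protein-coding genes in RefSeq, PLAU precedes VCL and AP3M1 and ADK follow it.

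TERT (chromosome 5 of hg18, 1306287 to 1348162, minus strand) had 1 peak before and 11 peaks after induction, the largest number after induction among the 4 genes. A peak of 218 bp from 1331436 to 1331653 lay inside the gene body, 16.5 kb downstream of the TSS. At the density of the chromosome a gene body of this length corresponds to 0.165 peaks after induction. Whether it falls on an exon or an intron was not examined here. Downstream of the gene there were 3 further peaks after induction, 291, 311 and 316 kb from the TSS, towards SLC6A18 and SLC6A19, which encode amino acid transporters. Upstream of the TSS, on the side of CLPTM1L and the dopamine transporter gene SLC6A3, there were 7 peaks after induction, from 149 to 438 kb away. The single peak before induction also lay on this side, 438 kb from the TSS, from 1785827 to 1785876. It was 36 bp away from a peak after induction (1785913 to 1785940) and did not overlap it. No peak of the list before induction lay nearer to the start of chromosome 5 than this peak, whereas the first peak after induction began at 62912.

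Relative to the rest of its chromosome, the density of peaks in these windows was highest among the 4 genes at PDGFA before induction and at TERT after induction. Chromosomes were counted from their first to their last peak of either list. The PDGFA window begins before the first peak of chromosome 7, and only its length from that peak (109104) on was used. Before induction the PDGFA window held 4.36 peaks per Mb and the rest of chromosome 7 held 0.843, a ratio of 5.18 (exact 95% interval 1.39 to 13.6). Of the 155 windows of the full width of 1.02 Mb along chromosome 7, 1.29% held 4 or more peaks before induction. Of 2916 such windows over the genome 2.16% did. These windows were longer than the stretch used for the density of PDGFA, and the first of them on chromosome 7 held the same 4 peaks. After induction the same window held 4.36 peaks per Mb against 4.24, a ratio of 1.03 (0.28 to 2.65). The TERT window held 10.6 peaks per Mb after induction against 3.91 on the rest of chromosome 5, a ratio of 2.7 (1.34 to 4.87). Of 173 windows along chromosome 5, 1.73% held 11 or more peaks after induction, and 1.68% of 2860 windows over the genome did. Before induction the ratio at TERT was 1.16 (0.0293 to 6.59), from 1 peak. With 250 kb on each side the ratio of PDGFA before induction was 4.48 (0.538 to 16.5), below that of MYC at 4.71, and that of TERT after induction was 1.88 (0.51 to 4.83), so that neither interval was above 1. With 1 Mb on each side, the interval of TERT after induction was above 1 (2.01, 1.14 to 3.29) and that of PDGFA before induction was not (3.34, 0.897 to 8.75), nor was it without narrow peaks (5.3, 0.628 to 19.9).

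At MYC the ratio was 3.57 before induction (0.725 to 10.7) and 1.28 after induction (0.415 to 3.01). Among windows of the same width on its chromosome 6.94% held at least 3 peaks before and 32.6% at least 5 peaks after induction. Without peaks of at most 29 bp the MYC window held 0 peaks before induction, with an upper limit of 9.28 for the ratio. The ratio of MYC after induction was then 0.854 (0.103 to 3.11). At VCL the ratio was 0.605 after induction (0.124 to 1.78), and before induction, with 0 peaks, the exact 95% upper limit was 2.55 (2.05 at the 3 peaks that a count of 0 allows). The intervals of MYC in both lists, of VCL after induction, of PDGFA after induction and of TERT before induction include 1, so a local excess or lack of peaks was not detectable there with these peak numbers. Over the 4 windows together, 8 peaks before induction stood against 3.96 at the density of the chromosomes, a ratio of 2.02 (exact Poisson 95% interval 0.872 to 3.98). After induction 23 peaks stood against 16.8, a ratio of 1.37 (0.865 to 2.05). With windows of 1 Mb on each side these ratios were 1.09 and 0.961. With that width the ratio of MYC was 1.78 before and 0.638 after induction, and that of VCL after induction was 0.317 (0.0653 to 0.932), while with 250 kb on each side VCL was at 1.09 (0.225 to 3.22).

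**Figure D3:**
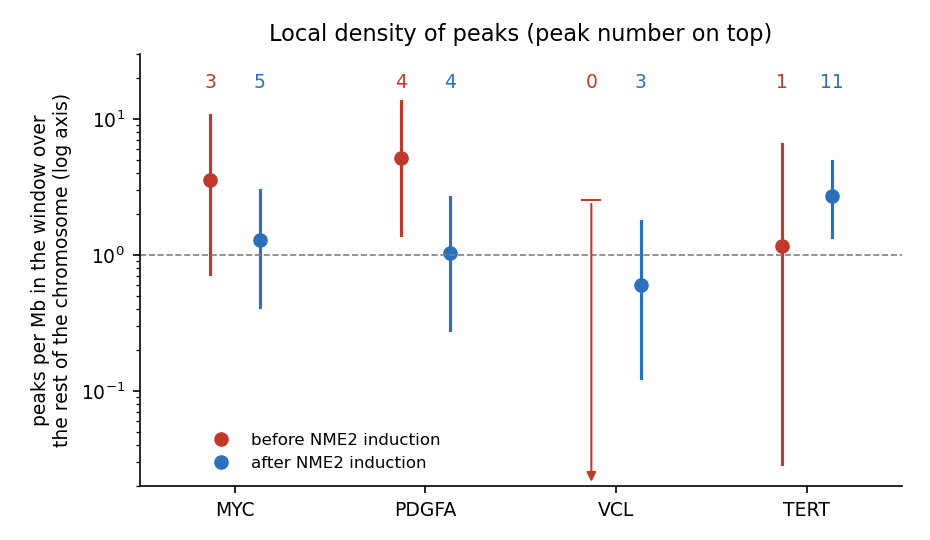
Density of peaks in the window of each gene over that of the rest of its chromosome, on a log axis, for the list before induction (red) and after induction (blue). Points are ratios, bars are exact 95% intervals, the arrow at VCL runs down from the exact upper limit of 2.55 for 0 peaks, and the numbers on top are peaks. The intervals of PDGFA before induction and TERT after induction lie above 1 for these windows of 500 kb on each side.

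The list after induction was 4.54 times as long as the list before, so the lists were compared by the share of their peaks that fell into a window. The share at PDGFA was 0.157% of the peaks before and 0.0346% after induction, a ratio of 0.22. The MYC window held 0.118% before and 0.0433% after induction, TERT held 0.0394% and 0.0953%, and VCL held none of the list before and 0.026% after induction. In a two-sided Fisher's exact test of each window against the rest of the lists, adjusted by the Benjamini-Hochberg method over 2808 windows of 1 Mb and the 4 gene windows, 0 of the 4 gene windows had an adjusted p under 0.05, and the adjusted p was 1 for each of them. The same test called 0.463% of the windows of the genome (13 windows), all with a smaller share after induction. Without adjustment the exact p was 0.04 for PDGFA, 0.162 for MYC, 0.706 for TERT and 1 for VCL. The unadjusted p of PDGFA was 0.223 with windows of 250 kb on each side. At these peak numbers the adjusted test could not have called any of the 4 genes in either direction. Beside 0 peaks before induction at least 19 peaks after induction, and beside 1 peak at least 27, are needed for an exact p under 0.05 without adjustment, and no window of 1 Mb held more than 17. On the side of a loss, even 4 peaks before and 0 after induction give an exact p of 0.00106, above the largest unadjusted p called in the genome (0.00019). The absence of calls therefore does not show that the lists had like shares at these genes. The additional peaks at VCL and TERT are given as counts.

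The distance from the TSS to the nearest peak was short at MYC in both lists, and was compared with positions placed every 10 kb along the same chromosome. At MYC, 6 of 14561 positions (0.0412%) were within 241 bp of a peak before induction, and 14 (0.0961%) were within 89 bp of a peak after induction. For VCL 4.91% of 13526 positions on chromosome 10 had a peak after induction within the 5.93 kb found there, while 88.4% had a peak before induction within its distance of 1.74 Mb. For TERT the shares were 11.9% of 18050 positions after and 53.7% before induction. PDGFA went the other way from VCL and TERT, with a larger share after induction, as at MYC. Of 15871 positions on chromosome 7, 81.7% were at least as near to a peak after induction and 31.7% before induction. The median position was between 395 and 453 kb from a peak before induction and between 85.4 and 95.5 kb from a peak after induction on these 4 chromosomes. These shares describe positions along the chromosome and not start sites of genes, which were not placed in hg18 here.

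**Figure D4:**
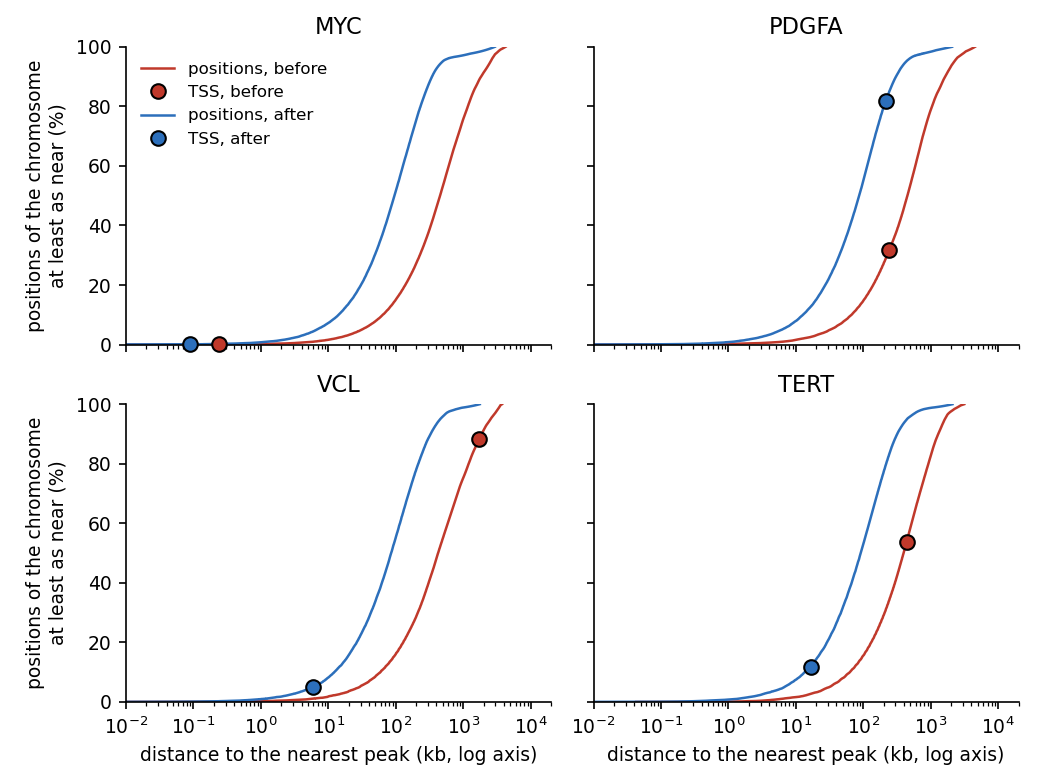
Share of positions on the chromosome of each gene, in percent, whose nearest peak is at most as far as the distance on the x axis (kb, log axis), for the lists before (red) and after induction (blue). Filled circles mark the TSS of the gene. Both circles of MYC lie at the foot of the curves, below 0.1% of positions, and the circle of PDGFA after induction lies at 81.7%.

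The peaks of the 4 windows had widths like those of their lists. Before induction they were 28 to 205 bp wide with a median of 29 bp, against 32 bp in the whole list, and after induction 28 to 218 bp with a median of 93 bp, against 92 bp. Of the 8 peaks found before induction, the only one to share bases with the other list was at PDGFA (1 peak). Another 3 were within 1000 bp of a peak after induction without overlap, both MYC peaks near the TSS and the peak upstream of TERT, and 4 were farther away. In the whole list before induction 21.1% shared bases with the other list, 8.5% were within 1000 bp and 70.4% were farther. Of the 23 peaks after induction 1 overlapped a peak before induction, 2 were within 1000 bp and 20 (87%) were farther, against 93.1% of the whole list.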

How the data were processed

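Per the study's methods, the authors shortened reads to 24 bp, mapped them to hg18 by MAQ (at most 2 mismatches) and used CisGenome for regions enriched over IgG at a false discovery rate of 10%, with refined boundaries and filtering on single strands. The deposited peak positions form 1 list per condition, with a running number, chromosome, start and end, and the sources used here do not say how the 2 replicates were combined. Starts counted from 0 and were raised by 1. The gene bodies in hg18 came with the choice of the genes and were not checked against an annotation of that build. The genes, windows and motifs were chosen with earlier results of these data known. All peaks in the gene bodies, the nearest peaks and those within 50 kb of a TSS were named.

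Windows were compared with the rest of their chromosome (from its first to its last peak of either list) with exact binomial or Poisson 95% intervals, with tiled windows of the same width, and between lists with Fisher's exact test, adjusted over the genome. A count of 0 was taken to allow 3. Counts and tests were made in pandas 2.3.3 and scipy 1.17.1 (with numpy 2.4.6, python 3.11.15) and were tested on simulated data. Other windows, backgrounds, distances and peak classes were tried as alternatives. RefSeq tables (GRCh38.p14) gave promoters and gene neighbours, and no coordinate was converted. Sequences of peaks were not analysed here.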

Additional observations from a re-analysis of the deposited data

How the results depend on the processing

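No paired analysis was possible because the deposited lists, 1 per condition, hold no values by replicate, so that leaving out a replicate could not be tried either. Results were recomputed under 11 other settings, and under 1 more chosen after seeing the data, in which peaks within 10 kb of each other counted as 1. Over the 4 genes 33 of 41 recomputed values stayed within 1.5 times the count or within the interval, and 8 moved. A ratio counted as unmoved anywhere inside its wide interval, even where it crossed 1. The ratio over the 4 genes after induction did so, from 1.37 to 0.961 with 1 Mb on each side. Staying within the interval is thus a weak sign of stability. Of the 33, 7 are the number of gene windows with an adjusted p under 0.05, which stayed at 0 and, since the test could not call them, says nothing about stability. The number of peaks near the genes was 4 before and 13 after induction with windows of 250 kb on each side, and 3 before and 14 after without peaks of at most 29 bp, both of which admit fewer peaks by construction. Without these narrow peaks 0 genes had a peak within 50 kb of the TSS before induction and 0 peaks before induction lay in a gene body, and the counts after induction were unchanged at 3 genes and 1 peak. With gene bodies extended by 10 kb the peaks in them were 2 before and 3 after induction. For single genes, 18 of 160 recomputed values moved, among them the peaks at TERT with 250 kb on each side (0 before and 4 after induction), and 3 lost an unadjusted p under 0.05, all at PDGFA: 0.223 with 250 kb, 0.0889 with 1 Mb on each side and 0.127 without narrow peaks. The ratio of density at TERT after induction ranged from 1.88 with 250 kb on each side to 3.27 without narrow peaks.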

Other observations

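The running numbers of the peaks, whose meaning the sources used here do not state, differed among the MYC peaks near the TSS. The upstream peak before induction had number 306, which is 9.59% of the highest number in that list, and the peak in the gene body had number 2718 (85.2%). The MYC promoter peak after induction had number 685 (4.25% of the highest number). The peak 5.93 kb upstream of VCL had number 7028 (43.6%), and the peak in the TERT gene body had number 8994 (55.7%).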
